A study of Mus musculus with 4 samples.

Results

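The synaptic vesicle fusion machinery was examined in hypothalamus RNA sequencing, in which WD-fed Tas1r3-/- mice were compared with WD-fed WT mice. Members were chosen by gene symbol. They are the genes whose symbols start with Syt, Stx, Vamp, Cplx, Rims or Unc13 followed directly by a digit, those that start with Stxbp, and Snap25, Snap23, Snap29, Snap47, Syn1, Syn2, Syp, Sv2a, Sv2b and Sv2c. Of the 16329 genes listed, 61 were members, and 59 of these were among the 14325 genes with enough counts to be tested. The other 2, Cplx3 and Cplx4, had too few. The RefSeq names hold 67 such genes, and Stx11, Stx19, Syt8, Vamp7, Vamp7-ps and Vamp9 had no transcript in the table. No gene matched Unc13 with a digit, because Unc13a to Unc13d carry letters, so these are given below as related genes and not as members.

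The study asked how TAS1R3, a subunit of the sweet and umami taste receptors that is also made in the hypothalamus, bears on anxiety after a Western diet. Male C57BL/6 mice received a 60% fat diet with a 30% sucrose solution (WD) for 12 weeks. The Tas1r3-/- mice were a conventional knockout line backcrossed to C57BL/6, which lacks the gene in the whole body and from birth, and the WT mice were age-matched littermates. Each group had 2 libraries, named WT WD replicates 1 and 2 and Tas1r3-/- WD replicates 1 and 2, and no library of mice on a control diet was analysed here. The study's methods describe sequencing of several mice per group, more than the libraries of a group analysed here, and the labels do not tie a library to a single mouse. The p-values measure the spread between these libraries.

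Neurons release transmitter when synaptic vesicles fuse with the plasma membrane. The vesicle protein synaptobrevin (the Vamp genes) zips together with syntaxin (Stx) and SNAP-25 on the plasma membrane into the SNARE complex. Complexins (Cplx) hold the assembled complex, synaptotagmins (Syt) sense calcium and trigger fusion, RIM proteins (Rims) tie vesicles to the active zone and to calcium channels, and synapsins (Syn) tether the reserve of vesicles. In the hypothalamus related proteins also serve the release of neuropeptides from dense-core vesicles.

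Estimated counts of transcripts were summed to genes and expressed as CPM, which is the count of a gene relative to its library size, scaled by edgeR's TMM factors. Library totals of named genes ranged from 5718600 to 6169461. Tas1r3 itself had 6.01 and 4.45 CPM in WT WD, against 1.12 and 1.23 CPM in Tas1r3-/- WD, so both knockout libraries were low and the groups did not overlap. Its log2 fold change was -2.13 (SE 0.42), with an edgeR adjusted p of 0.746 and an unadjusted p of 0.0041. The library labelled WT WD replicate 2 stood apart from the other 3 in its tissue markers. The summed level of 20 hypothalamus markers was 80.9 CPM there and 1567 to 2237 CPM in the others, all 20 were lowest in that library, and Nkx2-1, Nr5a1 and Hmx2 were at 0 in it. A count of 0 allows up to 3 counts, between 0.486 and 0.525 CPM in these libraries, and this limit covers counting error only. All 10 thalamus markers were highest there, at a summed 2183 CPM against 162 to 331 CPM, and the summed level of 7 choroid plexus markers was 765 CPM against 40.2 to 59.1 CPM, with 5 of them highest and none at 0. Of the choroid plexus sum, Ttr alone made up 678 CPM, against 0.701 to 4.29 CPM in the other libraries. Kl and Clic6 were not highest in WT WD replicate 2. Likewise 7 pituitary markers summed to 1450 CPM in Tas1r3-/- WD replicate 1 and to between 2.14 and 14.6 CPM elsewhere. In whole tissue, fewer cells of a type and less RNA per cell cannot be told apart. Where the fold change of a single member is given, its value without WT WD replicate 2 is given too. The part of the tissue markers in the results was not tested.

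No member of the fusion machinery differed between WD-fed Tas1r3-/- and WT mice by at least 1.5-fold at an adjusted p under 0.05 (0 of 59 tested). The share of all genes tested that passed was likewise 0.0%, the smallest edgeR adjusted p was 0.746, and the members' adjusted p ran from 0.746 to 0.986. At an unadjusted p under 0.05, edgeR's test picked out 3 members, 5.08% of those tested, and 5.51% of all genes tested. These were Stx1a and Stxbp2, with lower means in Tas1r3-/- WD (3.39% of members and 1.98% of all genes), and Syt14, with a higher mean (1.69% and 3.53%). Means were lower in Tas1r3-/- WD for 33 members, 55.9%, and for 51.0% of all genes. DESeq2 called 8 genes, 0.0558% of those tested, and none of them was a member. The median log2 fold change of the 59 members was -0.08, against -0.0057 over all genes tested, and without WT WD replicate 2 it was -0.0026. An exact permutation test of 2 against 2 libraries cannot go below 0.33 for any single gene.

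Both Tas1r3-/- WD libraries were above both WT WD libraries for 11 members, 18.6% of those tested, where 20.6% of all genes tested were. They were below for 13 members, 22.0%, where 19.0% of all genes were. The 11 with higher values were Cplx2, Rims4, Snap29, Stxbp5, Sv2c, Syt10, Syt14, Syt2, Vamp1, Vamp3 and Vamp4. The 13 with lower values were Snap23, Snap47, Stx1a, Stx3, Stx4a, Stxbp2, Stxbp4, Syn1, Syn2, Syt3, Syt6, Vamp2 and Vamp5. In all, 24 members (40.7%) had groups that did not overlap, and 39.6% of all genes did, so both shares lay near those of all genes.

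**Figure D1:**
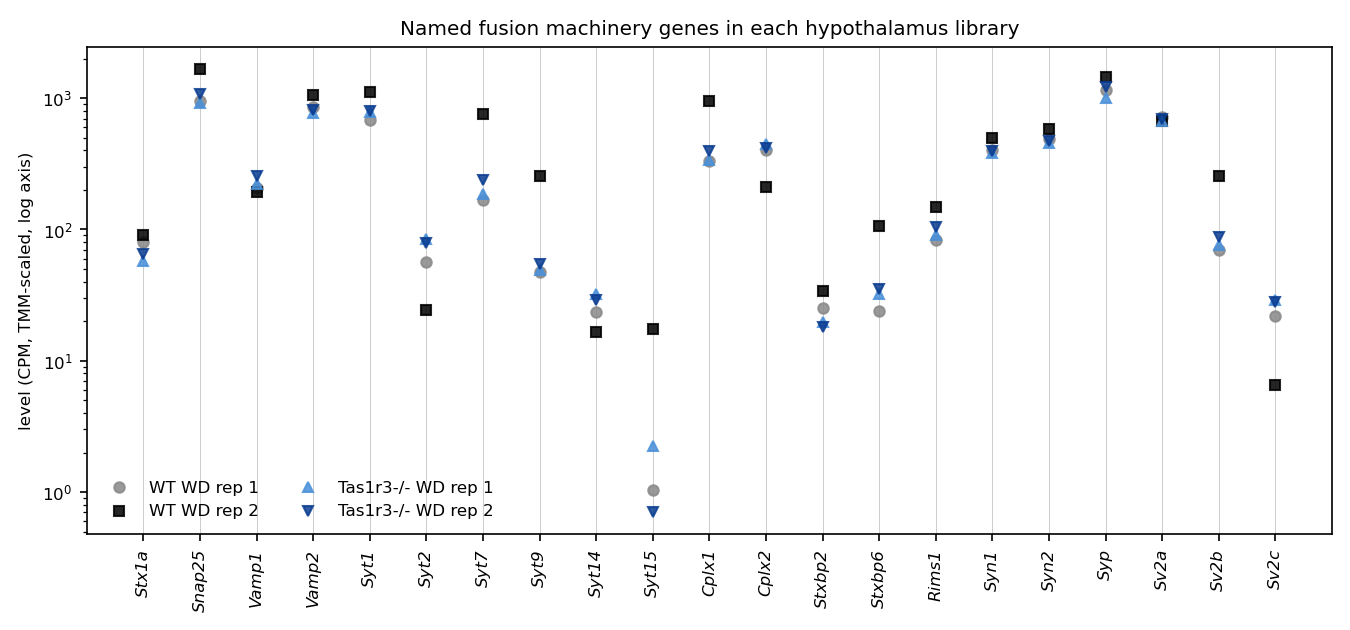
Level in CPM (log axis) of 21 named members in each of the 4 hypothalamus libraries, 1 marker per library. WT WD replicate 2 (black squares) lies far above the other 3 for Syt7, Syt9, Syt15, Cplx1, Stxbp6 and Sv2b and below them for Syt2, Cplx2 and Sv2c, while the other 3 lie close together for most genes. Syt9, Syt15 and Stxbp6 were named because they differed most between the WT WD libraries, a rule that Syt7 and Sv2b also met. The wide gap between the WT WD libraries for Syt9, Syt15 and Stxbp6 therefore follows from how they were chosen. Syt7 and Sv2b also belong to the fixed core and were named whatever their gap.

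The 3 members with the smallest p are shown first with the DNA upstream of their start, so that a reader can place them. RefSeq promoter windows were found for 46 of the 61 members. Each sequence runs 5′ to 3′ on the strand of its gene, covers the part of the 250 bases before the RefSeq start that lies outside every GENCODE exon, and was located on GRCm39 by an exact match. Capitals mark GC boxes, searched as GGGGCGGGG on both strands.
Syt14 (chr1:192718157-192718333, minus strand): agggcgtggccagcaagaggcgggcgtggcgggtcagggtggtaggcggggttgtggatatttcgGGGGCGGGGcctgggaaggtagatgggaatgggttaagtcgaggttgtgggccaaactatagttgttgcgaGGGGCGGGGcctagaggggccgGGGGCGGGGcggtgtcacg
Stx1a (chr5:135052086-135052138, plus strand): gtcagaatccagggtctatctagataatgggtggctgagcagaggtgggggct
Stxbp2 (chr8:3680859-3680931, plus strand): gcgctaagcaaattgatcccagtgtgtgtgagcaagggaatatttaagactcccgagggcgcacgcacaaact

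The Syt14 stretch held 3 GC boxes. Over the full windows of 250 bases, 15 of the 46 members held a GC box, which is 32.6%, against 11.8% of all 27025 genes in the RefSeq table. That table also holds genes outside the 16329 listed here, while every member was listed. The shares of members and of all genes in this paragraph thus compare unlike sets, and no share over the listed genes was counted. The cyclic AMP response element, TGACGTCA, stood in the windows of 2 of the 46 (4.35%), Stxbp3 and Syn1, and in 1.77% of all genes. Its core TGACG, which every full element contains, stood in 11 of the 46 (23.9%), Stx1a and Stxbp2 among them, and in 19.8% of all genes. It lay 144 to 140 bases before the RefSeq start of Stx1a and 6 to 2 bases before that of Stxbp2. Both places fall in the part of the windows that is not printed above. TTCAGCACC, the left part of the RE1 element that the repressor REST binds in neuronal genes, stood in the window of Syn1 alone among members (2.17%) and in 0.348% of all genes. TATAAA stood in 3 of the 46 (6.52%) and in 14.3% of all genes. A match of letters is a description and not a binding site.

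The plasma membrane SNAREs were the first group examined. Stx1a (ENSMUSG00000007207, chromosome 5: 135052139 to 135079963), which encodes syntaxin-1A, had 80.7 and 90.5 CPM in the WT WD libraries and 57.5 and 64.5 CPM in the Tas1r3-/- WD libraries. Both knockout libraries were lower and the groups did not overlap. The log2 fold change was -0.49 (SE 0.14), with an edgeR unadjusted p of 0.018 and an adjusted p of 0.746. It ran from -0.58 to -0.40 when each library was left out in turn, and was -0.40 without WT WD replicate 2. Snap25 (ENSMUSG00000027273, chromosome 2: 136533580 to 136624362), which supplies a pair of helices to the SNARE complex, had 945 and 1664 CPM in the WT WD libraries and 924 and 1074 CPM in the Tas1r3-/- WD libraries. Among the 4, WT WD replicate 2 was far above. The log2 fold change of Snap25 was -0.38 (SE 0.30) with all libraries and 0.08 without that library.

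Of the 13 syntaxin genes tested, 7 had a higher mean and 6 a lower mean in Tas1r3-/- WD, with log2 fold changes between -0.49 and 0.17. The other syntaxins work largely in endosomes, the Golgi and the endoplasmic reticulum. Among the SNAP-25 relatives, Snap23, the form common outside neurons, had 13.1 and 12.2 CPM in WT WD, against 8.996 and 8.94 CPM in Tas1r3-/- WD. The groups of Snap23 did not overlap, and its log2 fold change of -0.49 was -0.54 without WT WD replicate 2. Snap47 had 612 and 580 CPM in the WT WD libraries and 503 and 542 CPM in the Tas1r3-/- WD libraries, also without overlap. Its log2 fold change was -0.19, and -0.23 without that library. Snap23 and Snap47 were named after their values were seen.

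Of the vesicle SNAREs, Vamp2 (ENSMUSG00000020894, chromosome 11: 68979316 to 68983210), the main synaptobrevin of the forebrain, had 854 and 1054 CPM in WT WD, against 765 and 820 CPM in Tas1r3-/- WD. Both knockout libraries were lower, with a log2 fold change of -0.27 (SE 0.17) and of -0.11 without WT WD replicate 2. Vamp1, whose product prevails at many brainstem and spinal synapses, had 207 and 194 CPM in the WT WD libraries and 222 and 256 CPM in the Tas1r3-/- WD libraries. Here both knockout libraries were higher, with a log2 fold change of 0.25 (SE 0.13) and of 0.21 without that library. The ratio of Vamp1 to Vamp2 in CPM per kb of canonical transcript was 0.0934 and 0.0711 in WT WD, against 0.112 and 0.121 in Tas1r3-/- WD. The groups had to separate in this ratio, since both knockout libraries were higher for Vamp1 and lower for Vamp2. Vamp3, Vamp4 and Vamp8, which serve endosomal and other fusion, had log2 fold changes of 0.29, 0.29 and 0.08, and of 0.46, 0.03 and 0.23 without WT WD replicate 2. Vamp5 had at most 3.26 CPM in any library and a log2 fold change of -1.004, and of -1.19 without that library.

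Synaptotagmins were the largest family, with 16 genes, and the mean in Tas1r3-/- WD was above that in WT WD for 8 and below it for 8. Syt1 (ENSMUSG00000035864, chromosome 10: 108333505 to 108846856), the calcium sensor of fast release in the forebrain, had 680 and 1109 CPM in WT WD, against 778 and 805 CPM in Tas1r3-/- WD. The knockout libraries lay between the WT ones. The log2 fold change was -0.18 (SE 0.26) with all libraries and 0.22 without WT WD replicate 2. Syt2, the fast sensor of the hindbrain and of some inhibitory neurons, had 56.7 and 24.6 CPM in the WT WD libraries and 84.5 and 78.5 CPM in the Tas1r3-/- WD libraries. Both knockout libraries were higher, and WT WD replicate 2 was the lowest. The log2 fold change of Syt2 was 1.01 (SE 0.40), with an edgeR unadjusted p of 0.053 and an adjusted p of 0.746, and it was 0.52 without that library.

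Syt7, a high-affinity sensor of slow release and of facilitation, had 167 and 753 CPM in WT WD, against 187 and 237 CPM in Tas1r3-/- WD. A high level was found in WT WD replicate 2 alone. The log2 fold change of Syt7 was -1.12 (SE 0.69), and without that library it had the other sign, at 0.34. Syt9, another calcium-binding isoform, had 47.6 and 256 CPM in the WT WD libraries and 49.0 and 54.4 CPM in the Tas1r3-/- WD libraries, a log2 fold change of -1.56 (SE 0.76) that was 0.12 without the same library. Syt15 was near the detection limit outside WT WD replicate 2, at 1.03 and 17.3 CPM in WT WD, against 2.25 and 0.701 CPM in Tas1r3-/- WD. This gave a log2 fold change of -2.60 (SE 1.34), and 0.54 without that library. Syt15 reached the mean level required for naming, given below, only through that library, so its large fold change follows from how it was chosen. Syt14, an isoform that does not bind calcium, had 23.5 and 16.6 CPM in the WT WD libraries and 32.0 and 28.9 CPM in the Tas1r3-/- WD libraries. Both knockout libraries of Syt14 were higher. Its log2 fold change was 0.60 (SE 0.22), with an edgeR unadjusted p of 0.044 and an adjusted p of 0.746, and it was 0.37 without that library.

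Among the complexins, Cplx1 (ENSMUSG00000033615, chromosome 5: 108666416 to 108697899) had 330 and 950 CPM in WT WD, against 337 and 395 CPM in Tas1r3-/- WD. Cplx2 (ENSMUSG00000025867, chromosome 13: 54519154 to 54531730) had 404 and 209 CPM in the WT WD libraries and 448 and 421 CPM in the Tas1r3-/- WD libraries. Thus WT WD replicate 2 was the highest library for Cplx1 and the lowest for Cplx2. The log2 fold change of Cplx1 was -0.81 (SE 0.50) with all libraries and 0.15 without that library, and that of Cplx2 was 0.50 (SE 0.32) and 0.11. The ratio of Cplx1 to Cplx2 in CPM per kb was 1.84 and 10.2 in WT WD, against 1.69 and 2.11 in Tas1r3-/- WD. Cplx3 and Cplx4, the retinal complexins, were untested and had at most 2.47 CPM in any library, with Cplx4 at 0 in Tas1r3-/- WD replicate 2.

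**Figure D2:**
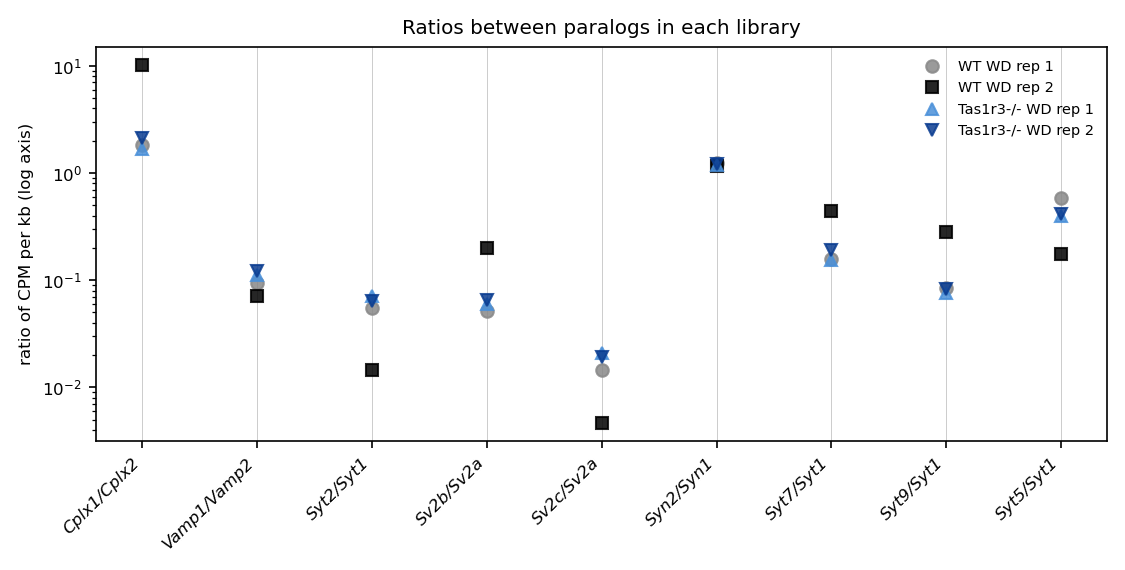
Ratios of CPM per kb of canonical transcript between paralogs in each library (log axis). The Cplx1 to Cplx2 ratio was 10.2 in WT WD replicate 2 and between 1.69 and 2.11 in the other 3, whereas the Syn2 to Syn1 ratio lay between 1.17 and 1.23 in all 4.

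The Stxbp genes encode partners of syntaxins. Stxbp2, which serves regulated secretion in many non-neuronal cells, had 25.1 and 34.1 CPM in the WT WD libraries and 19.8 and 18.1 CPM in the Tas1r3-/- WD libraries. Both knockout libraries of Stxbp2 were lower. Its log2 fold change was -0.65 (SE 0.21), with an edgeR unadjusted p of 0.030 and an adjusted p of 0.746, and it was -0.41 without WT WD replicate 2. Stxbp6, or amisyn, a competitor of synaptobrevin for syntaxin, had 23.9 and 107 CPM in WT WD, against 32.0 and 35.4 CPM in Tas1r3-/- WD. Only WT WD replicate 2 was high, and the log2 fold change of -0.95 (SE 0.68) was 0.50 without it. Stxbp3 and the pseudogene Stxbp3-ps resemble each other in sequence, so the split of reads between them is uncertain.

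Of the 4 Rims genes, Rims1, a scaffold of the active zone, had 83.0 and 149 CPM in the WT WD libraries and 90.3 and 105 CPM in the Tas1r3-/- WD libraries. The knockout libraries lay between the WT ones, and the log2 fold change of -0.25 (SE 0.30) was 0.23 without WT WD replicate 2. Rims4, a short form, was the only member of this family whose groups did not overlap, with 84.7 and 66.6 CPM in WT WD, against 94.8 and 108 CPM in Tas1r3-/- WD. This gave a log2 fold change of 0.42, and 0.26 without that library, and Rims4 was named after its values were seen.

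Proteins of the vesicle itself were led by Syp (synaptophysin), with 1153 and 1446 CPM in the WT WD libraries and 1002 and 1218 CPM in the Tas1r3-/- WD libraries. The groups overlapped, and the log2 fold change of Syp was -0.23 (SE 0.20) with all libraries and -0.05 without WT WD replicate 2. Syn1 (ENSMUSG00000037217, chromosome X: 20726750 to 20787397), encoding synapsin I, had 400.4 and 501 CPM in WT WD, against 386 and 395 CPM in Tas1r3-/- WD, a log2 fold change of -0.21 (SE 0.16). Syn2 had 490 and 581 CPM in the WT WD libraries and 456 and 475 CPM in the Tas1r3-/- WD libraries, a log2 fold change of -0.20 (SE 0.15). For both synapsins the knockout libraries were lower without overlap. Without WT WD replicate 2 their log2 fold changes were -0.04 and -0.07, since WT WD replicate 1 was only slightly above the knockout libraries.

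The SV2 glycoproteins, which bind synaptotagmin and make vesicles competent for release, differed among themselves. Sv2a, the form common to most neurons, had 714 and 675 CPM in WT WD, against 670.4 and 698 CPM in Tas1r3-/- WD, and its groups overlapped, with a log2 fold change of -0.02 (SE 0.13), and of -0.06 without WT WD replicate 2. Sv2b had 69.9 and 257 CPM in the WT WD libraries and 76.5 and 88.0 CPM in the Tas1r3-/- WD libraries. Sv2c had 22.0 and 6.59 CPM in WT WD, against 29.2 and 27.9 CPM in Tas1r3-/- WD. The level in WT WD replicate 2 was high for Sv2b and low for Sv2c. Their log2 fold changes were -0.99 (SE 0.60) and 1.00 (SE 0.54) with all libraries, and 0.23 and 0.38 without that library.

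The 2 WT WD libraries differed more from each other over the members than the 2 knockout libraries did. The median absolute log2 difference was 0.36 between the WT WD libraries and 0.13 between the Tas1r3-/- WD libraries, and over all genes tested it was 0.29 and 0.15. WT WD replicate 2 was the highest of the 4 libraries for 28 members, 47.5%, against 33.9% of all genes, and the lowest for 18 members, 30.5%, against 34.6%. The summed level of the 61 members was 16277 CPM in it and 12308 to 13380 CPM in the other 3. It was over 2-fold above the mean of the other 3 for 6 members (10.2%, and 4.56% of all genes), which were Cplx1, Stxbp6, Sv2b, Syt15, Syt7 and Syt9. It was over 2-fold below for 3 members (5.08%, and 4.98% of all genes), which were Cplx2, Sv2c and Syt2. Pan-neuronal markers moved in the same direction, with 9 of 12 highest there and a summed level of 8779 CPM against 6451 to 7017 CPM, although Snap25 belongs to that list.

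**Figure D3:**
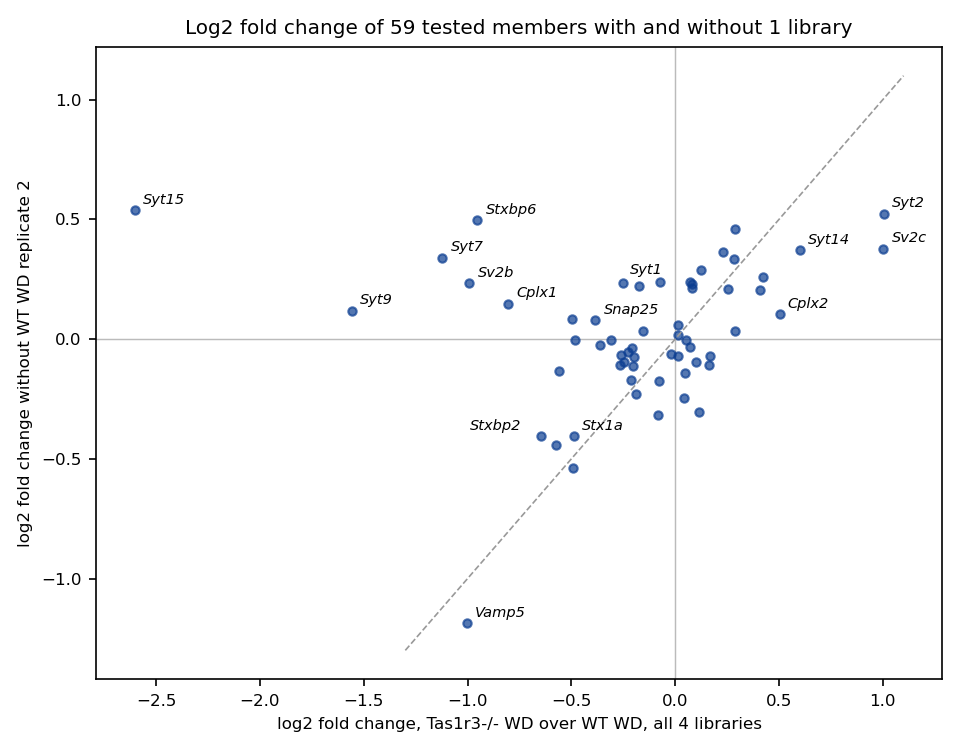
Log2 fold change of Tas1r3-/- WD over WT WD for the 59 tested members, from all 4 libraries (x axis) and without WT WD replicate 2 (y axis), 1 point per member and a dashed line of equal values. Syt15, Syt9, Syt7, Sv2b, Stxbp6 and Cplx1 lie left of 0 and above 0, so their sign depended on that library, while Stx1a, Stxbp2, Syt14 and Syt2 stayed on their side.

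The direction of 21 of the 59 members changed without WT WD replicate 2, and 29 members had 1 sign in all 4 fits that left out a library. Neither count was made over all genes, so they show no trait of the members. That library was the highest for 33.9% and the lowest for 34.6% of all genes tested. Without WT WD replicate 2, edgeR called 0 members and 25 genes (0.17% of those tested), and 8 members (13.6%) had an unadjusted p under 0.05, where 13.8% of all genes did. Without WT WD replicate 1, the only WT library left was replicate 2, which was assumed to vary like the others. That fit called 21 of 60 members (35.0%) and 2149 genes (14.5%). The calls were 8 higher and 13 lower members (13.3% and 21.7%), against 7.5% and 7.0% of all genes. Leaving out either knockout library gave no call.

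The order of levels among the members was compared per kb of canonical transcript, as the mean of the 2 group means. Vamp2 stood first at 771 CPM per kb, followed by Snap25 at 504, Syp at 465, Snap47 at 248, Syt11 at 239 and Cplx1 at 229 CPM per kb. Snap25 and Syp exchanged places between libraries, so these neighbours did not differ beyond their spread. The same held for Snap47, Syt11 and Cplx1, where Cplx1 ranged from 150.2 CPM per kb in WT WD replicate 1 to 432 CPM per kb in WT WD replicate 2. Further down were Syt1 at 177, Sv2a at 159, Syn2 at 148 and Syn1 at 123 CPM per kb. The lowest were Cplx4 at 0.297, Cplx3 at 0.555 and Syt15 at 1.47 CPM per kb. Among synaptotagmins, Syt7 reached 0.159 and 0.438 of the Syt1 level in WT WD and 0.155 and 0.190 of it in Tas1r3-/- WD, while Syt5 reached 0.581 and 0.176 in WT WD, against 0.396 and 0.412 in Tas1r3-/- WD.

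The 61 members were represented by 148 RefSeq transcripts, 29 members by 1 each. Transcripts of a gene share most of their reads, so their estimated counts are less certain than those of the gene. Of 143 member transcripts tested, edgeR called 0, as it did of all transcripts (0.0%), and 10 (6.99%) had an unadjusted p under 0.05, against 5.26% of all 25636. For Stx1a the table lists 2 protein-coding (NM) and 2 non-coding (NR) transcripts. The protein-coding ones together had 288 and 345 estimated counts in WT WD, against 135 and 92.6 in Tas1r3-/- WD, and the non-coding ones had 181 and 204 in WT WD, against 223 and 275 in Tas1r3-/- WD. The 2 kinds thus differed in opposite directions between the groups, without overlap in either. How many genes have such opposite kinds was not counted, so this shows no trait of Stx1a. Single transcripts had groups without overlap in 32.9% of the member transcripts tested and in 35.7% of all transcripts tested. Of the core genes with several listed transcripts, only Stx1a, Snap25 and Rims1 are described here. Their patterns do not stand for the others. The protein-coding share was 61.3% (95% Wilson interval 56.8% to 65.6%) and 62.8% (58.7% to 66.8%) in WT WD, and 37.7% (32.8% to 42.8%) and 25.3% (21.1% to 30.0%) in Tas1r3-/- WD. These intervals cover counting error only. NM_016801, a coding transcript of Stx1a, had a log2 fold change of -1.72 (SE 0.38), an edgeR unadjusted p of 0.0058 and an adjusted p of 0.865. The edgeR unadjusted p of the other Stx1a transcripts was 0.107 for NM_001359179, 0.236 for NR_133683 and 0.356 for NR_152855.

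For Snap25, NM_011428 made up 75.5% of the estimated counts in WT WD replicate 1 (95% Wilson interval 74.3% to 76.6%), 50.5% in WT WD replicate 2 (49.5% to 51.4%), and 73.8% (72.7% to 74.9%) and 73.2% (72.0% to 74.3%) in Tas1r3-/- WD. NM_001291056 made up 13.0% (12.1% to 13.9%), 31.2% (30.3% to 32.1%), 12.2% (11.3% to 13.0%) and 14.7% (13.9% to 15.6%) in the same order. A different mix was found in WT WD replicate 2, and the other WT library lay close to the knockout ones. Rims1 had the same pattern, with NM_001012625 at 49.1% of the gene in WT WD replicate 2 (45.8% to 52.3%) and at 18.0% (14.8% to 21.7%), 22.6% (19.3% to 26.2%) and 18.7% (15.8% to 22.1%) in the other 3. Vamp4, named after its values were seen, had 37.8 and 38.9 estimated counts of NM_001347125 in WT WD, against 136 and 96.8 in Tas1r3-/- WD. This gave a log2 fold change of 1.57 (SE 0.36), with an edgeR unadjusted p of 0.0064 and an adjusted p of 0.865.

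**Figure D4:**
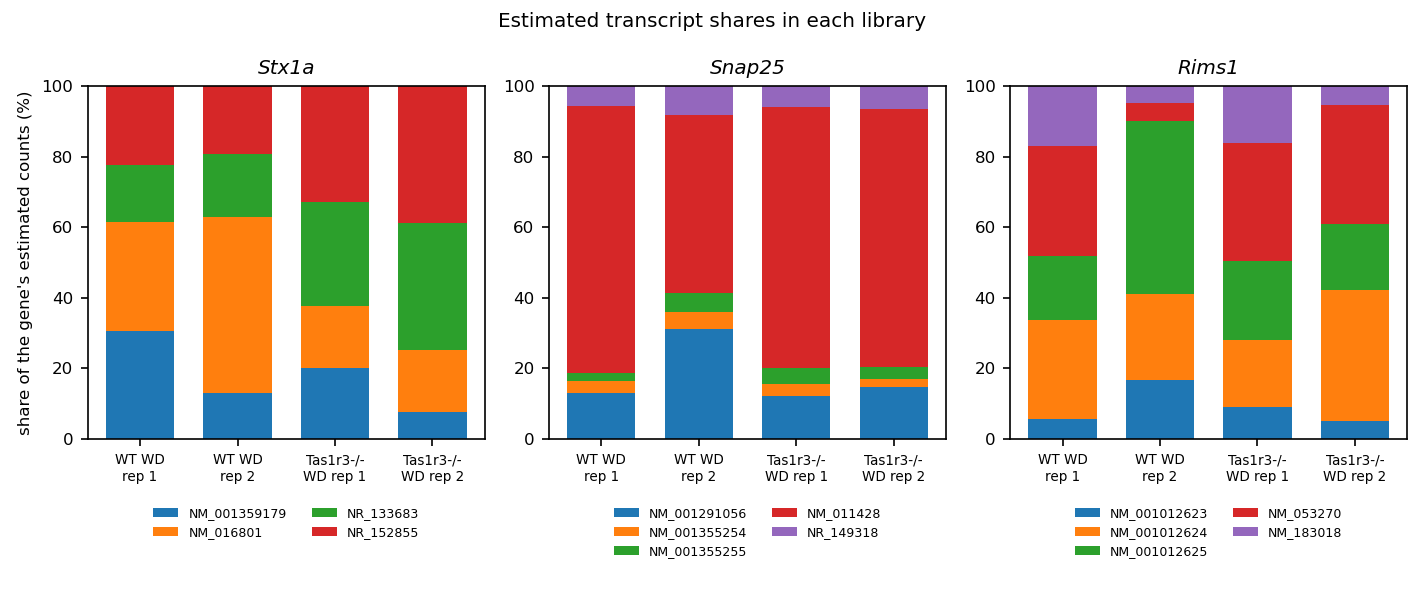
Share of the estimated counts of Stx1a, Snap25 and Rims1 given to each RefSeq transcript in each library (stacked bars, percent of the gene). The NM transcripts of Stx1a (lower 2 segments) take 61.3% and 62.8% in WT WD, against 37.7% and 25.3% in Tas1r3-/- WD, while for Snap25 and Rims1 WT WD replicate 2 is the library that differs.

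Genes that work beside the members gave no call either. The Munc13 proteins prime vesicles by opening syntaxin. Unc13a, the main neuronal form, had 244 and 282 CPM in the WT WD libraries and 265 and 247 CPM in the Tas1r3-/- WD libraries, a log2 fold change of -0.04 (SE 0.14) that was 0.07 without WT WD replicate 2. Unc13c had 76.8 and 60.0 CPM in WT WD, against 109 and 116 CPM in Tas1r3-/- WD. Both knockout libraries of Unc13c were higher, and its log2 fold change of 0.72 (SE 0.16) had an edgeR unadjusted p of 0.0076 and an adjusted p of 0.746. Without WT WD replicate 2 it was 0.55. Unc13b and Unc13d overlapped between the groups, with log2 fold changes of -0.36 and -0.23. Without that library Unc13b was at -0.09 and Unc13d had the other sign, at 0.16.

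The lists of related genes are read against all genes tested, of which 20.6% had both knockout libraries above and 19.0% below both WT libraries. Of 11 active zone scaffold genes, 1 had both knockout libraries above and 3 below both WT libraries, and Tspoap1, the most abundant, had 406 and 301 CPM in the WT WD libraries and 363 and 386 CPM in the Tas1r3-/- WD libraries. Of 5 genes of SNARE disassembly, 1 lay below and 0 above, and Nsf, the ATPase that takes used SNARE complexes apart, had 867 and 1144 CPM in WT WD, against 849.8 and 908 CPM in Tas1r3-/- WD. Of 13 genes of Rab3 and C2 cofactors 2 lay above and 1 below, of 14 other vesicle protein genes 4 above and 3 below, of 21 genes of vesicle endocytosis 3 above and 8 below, and of 4 synaptotagmin-like genes 1 above and 0 below. For vesicle endocytosis, WT WD replicate 2 was the highest library for 15 of the 21 genes and for 33.9% of all genes. The median log2 fold change of the endocytosis genes was -0.18 with all libraries and -0.07 without that library. None of these lists held a gene with an adjusted p under 0.05. The vesicular transporters, which load transmitter, had none of 7 tested genes without overlap. Slc17a6, the glutamate transporter of most hypothalamic excitatory neurons, had 208 and 529 CPM in the WT WD libraries and 218 and 231 CPM in the Tas1r3-/- WD libraries. Slc32a1, the GABA transporter, had 240 and 24.9 CPM in WT WD, against 235 and 229 CPM in Tas1r3-/- WD. WT WD replicate 2 again stood apart, high for the glutamate transporter and low for the GABA transporter, while the other 3 libraries lay close together.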

How the data were processed

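RNA from the hypothalamus of WD-fed mice had been sequenced on Ion Torrent libraries. The authors used STAR, run in Partek Flow, to align to mm39, and quantified RefSeq transcripts. They deposited an estimated count (expected count) per transcript and library, without normalization, listing transcripts with a total of at least 10. Transcripts were summed to genes by RefSeq accession (30783 of 30930 matched, with a GRCm38.p6 table used for names only), and the unmatched 147 held 0.583% to 2.66% of the counts. Sums were rounded and tested with edgeR 4.0.16 (R 4.3.3; TMM, filterByExpr, quasi-likelihood test, Benjamini-Hochberg), with no covariates. Genes at least 1.5-fold apart with an adjusted p under 0.05 were called. Positions and lengths are from GENCODE on GRCm39, and promoter windows are from RefSeq (GRCm38.p6). The WT WD libraries held 5790649 and 6141177 counts, the Tas1r3-/- WD libraries 6169461 and 5718600.

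Members and lists were chosen with earlier results of these data known. Named members were a fixed core of calcium-triggered release and members with an unadjusted p under 0.05. The 5 members that differed most between the WT WD libraries, at a mean of at least 5 CPM, were also named. Syt15, with a mean of 5.32 CPM, met this minimum only through WT WD replicate 2, at 17.3 CPM. It had 1.03 CPM in WT WD replicate 1, and 2.25 and 0.701 CPM in the Tas1r3-/- WD libraries. Values of 2 core genes are not reported here. Alternatives were RLE size factors, total counts, DESeq2 1.42.0, limma-trend (limma 3.58.1), no filter beyond 1 count, at least 10 counts in every library, a replicate block, no fold change threshold, Unc13a to Unc13d added, and each library left out. The earlier quasi-likelihood method and tests on transcripts were chosen after seeing the data. The tests were checked on simulated counts.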

Additional observations from a re-analysis of the deposited data

How the results depend on the processing

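With all 4 libraries, the 21 named members kept their direction in 167 of 167 values under the other settings, and edgeR and limma-trend called 0 genes. DESeq2 called 8 genes and 0 members. The replicate numbers do not pair the libraries by their labels, and the correlation of the replicates' deviations between the groups was 0.08. With a replicate block 0 genes and 0 members were called, the median of the members was -0.08 and the smallest adjusted p was 0.0528.

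Leaving out 1 library gave 0 to 2149 genes called, 0 to 21 members called and a median of -0.20 to -0.0026, the high counts coming without WT WD replicate 1. Members whose groups did not overlap numbered 24 with all libraries and 30 to 53 with 2 against 1, where fewer libraries have to separate. With all libraries the groups did not overlap for 39.6% of all genes tested. That share was not counted for 2 against 1, so these counts show no trait of the members. Among the named members, log2 fold changes that took both signs ranged from -1.37 to 0.15 for Cplx1, -0.61 to 0.23 for Rims1, -0.73 to 0.080 for Snap25, -1.66 to 0.50 for Stxbp6, -0.061 to 0.026 for Sv2a, -1.64 to 0.23 for Sv2b, -0.48 to 0.22 for Syt1, -3.67 to 0.54 for Syt15, -1.83 to 0.34 for Syt7 and -2.31 to 0.12 for Syt9. The cause was not tested. With 2 libraries a group, leaving out 1 leaves a lone library that is assumed to vary like the others.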
